A study of Mus musculus with 2 samples.

Results

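The complement genes described here are C1qa, C1qb, C1qc, C1ra, C1s1, C4b, C2, C3 and Cd55, 9 of the 32287 features counted in the series, taken by their symbols in the feature lists. They were followed through the fibroblast-like layers, border macrophage-like, microglia-like, endothelial-like and mural-like cells of the mouse leptomeninges. The data are 2 droplet single-cell RNA libraries of 1 group, called R1 and R2, with no other tissue or treatment to set them against, so every comparison is between cell classes. Both came from adult mice aged 3 months, of both sexes, that carried the Pdgfra-H2BGFP reporter, in which a nuclear green fluorescent protein reports activity of the Pdgfra gene. The leptomeninges, the thin pia and arachnoid membranes, had been peeled by hand off the cerebral hemispheres. At most 5000 recovered cells were aimed for in a sample. The labels do not say how many mice went into a library or whether the libraries came from separate animals. Library was a block in the fits, so p-values measure the spread of classes that is left between these libraries after it, which may be technical. That spread was estimated jointly over classes and with information shared between genes.

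Complement is a cascade of blood and tissue proteins that tags surfaces for removal. In the classical pathway C1q, built from the A, B and C chains that C1qa, C1qb and C1qc encode, binds its target and activates the serine proteases C1r and C1s, which cleave C4 and then C2 to form the enzyme that cleaves C3. Cd55, or decay accelerating factor, is a membrane protein that dissociates this enzyme on host cells. In the brain, microglia are known as a main source of C1q, and C1q and C3 are known for marking synapses for removal during development.

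In the GENCODE annotation of GRCm38, the assembly behind build mm10, the 3 C1q genes lie side by side on the minus strand of chromosome 4: C1qb at chr4:136880129-136886187, C1qc at chr4:136889804-136893065 and C1qa at chr4:136895917-136898803, with gaps of 3616 and 2851 bases. C1ra (chr6:124512405-124523443, plus strand) and C1s1 (chr6:124530345-124542359, minus strand) are neighbours 6901 bases apart. C4b (chr17:34728380-34743882), C2 (chr17:34862604-34898265) and C3 (chr17:57203970-57228136) are on the minus strand of chromosome 17, and Cd55 is at chr1:130439027-130462744 on the minus strand. Upstream sequences from RefSeq (GRCm38.p6) follow for C1qb and C1qc, shown because their levels went together, and for C1s1 and Cd55, shown because each had a high level in 1 small class. Each runs 5′ to 3′ on the gene's strand towards the RefSeq start and is cut where the annotated gene begins. Capitals mark a match to GAGGAA (a core of the binding site of the myeloid factor PU.1 and other ETS factors) or to TTNNGCAA (a C/EBP-type site), on either strand.
C1qb (chr4:136886201-136886450, minus strand): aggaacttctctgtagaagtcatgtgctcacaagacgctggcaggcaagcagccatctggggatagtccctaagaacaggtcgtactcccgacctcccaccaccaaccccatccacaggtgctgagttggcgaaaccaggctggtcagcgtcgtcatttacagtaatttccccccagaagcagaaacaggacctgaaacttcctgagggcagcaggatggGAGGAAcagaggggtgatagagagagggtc
C1qc (chr4:136893066-136893164, minus strand): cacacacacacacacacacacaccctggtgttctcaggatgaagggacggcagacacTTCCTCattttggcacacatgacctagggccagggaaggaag
C1s1 (chr6:124542360-124542609, minus strand): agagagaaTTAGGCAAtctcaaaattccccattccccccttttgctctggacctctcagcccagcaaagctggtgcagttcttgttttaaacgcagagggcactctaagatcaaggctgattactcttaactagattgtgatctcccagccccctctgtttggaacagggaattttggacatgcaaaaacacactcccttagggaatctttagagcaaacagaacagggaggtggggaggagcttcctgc
Cd55 (chr1:130462745-130462994, minus strand): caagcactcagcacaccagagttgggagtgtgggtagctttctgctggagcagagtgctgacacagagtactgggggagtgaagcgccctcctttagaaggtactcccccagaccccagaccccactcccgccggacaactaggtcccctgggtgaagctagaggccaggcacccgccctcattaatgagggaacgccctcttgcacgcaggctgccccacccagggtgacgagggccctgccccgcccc

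In the 250 bases before the start, GAGGAA began 30 bases before that of C1qb and stood on the other strand 193 bases before that of C1qc. The same letters, on either strand, occurred in 23.3% of the 32851 RefSeq upstream windows of that length. TTNNGCAA began 242 bases before the first C1s1 start and was found in 9.56% of the windows. The AP-1 site TGACTCA, found in 4.46% of windows, had no match in these sequences, and no motif matched in the Cd55 window. These matches describe letters only.

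R1 had 7276 barcodes with 14586462 unique molecular identifiers (UMIs, 1 per captured transcript), and R2 had 6743 barcodes with 12359040 UMIs. Of these, 2984 and 3037 cells were kept, with medians of 1642.5 and 1249 UMIs per cell. The libraries shared 93 barcode sequences, of which 79 and 78 were among the kept cells. They fell mostly in endothelial-like cells, which numbered 332 and 320 with them and 265 and 253 without. The endothelial-like sums of R1 and R2 may therefore not be independent, which was not tested. The doublet caller marked 4 and 1 barcodes and did not work here, so doublets are likely to remain. Classes were named from marker genes, none of which is 1 of the 9 genes, and the clustering left all complement genes out. In R1 and R2 there were 529 and 668 border macrophage-like, 181 and 96 microglia-like, 332 and 320 endothelial-like and 45 and 48 mural-like cells. The fibroblast-like layers held 186 and 125 pial and perivascular, 232 and 442 inner arachnoid, 583 and 324 dural border and 36 and 30 arachnoid barrier cells, while 363 and 641 fibroblast-like cells fitted no layer. Malat1, a nuclear RNA whose low share marks cells with little nuclear RNA, made up at least 1% of UMIs in 28.2% and 24.4% of border macrophage-like cells, 45.3% and 41.7% of microglia-like cells and 31.5% and 19.2% of inner arachnoid cells. In endothelial-like cells the share was 87.3% and 81.6%, and in dural border cells 97.3% and 89.2%. Levels are given as CPM, the summed UMIs of a class scaled to a fixed total, and intervals on counts or shares cover counting error only.

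**Figure D1:**
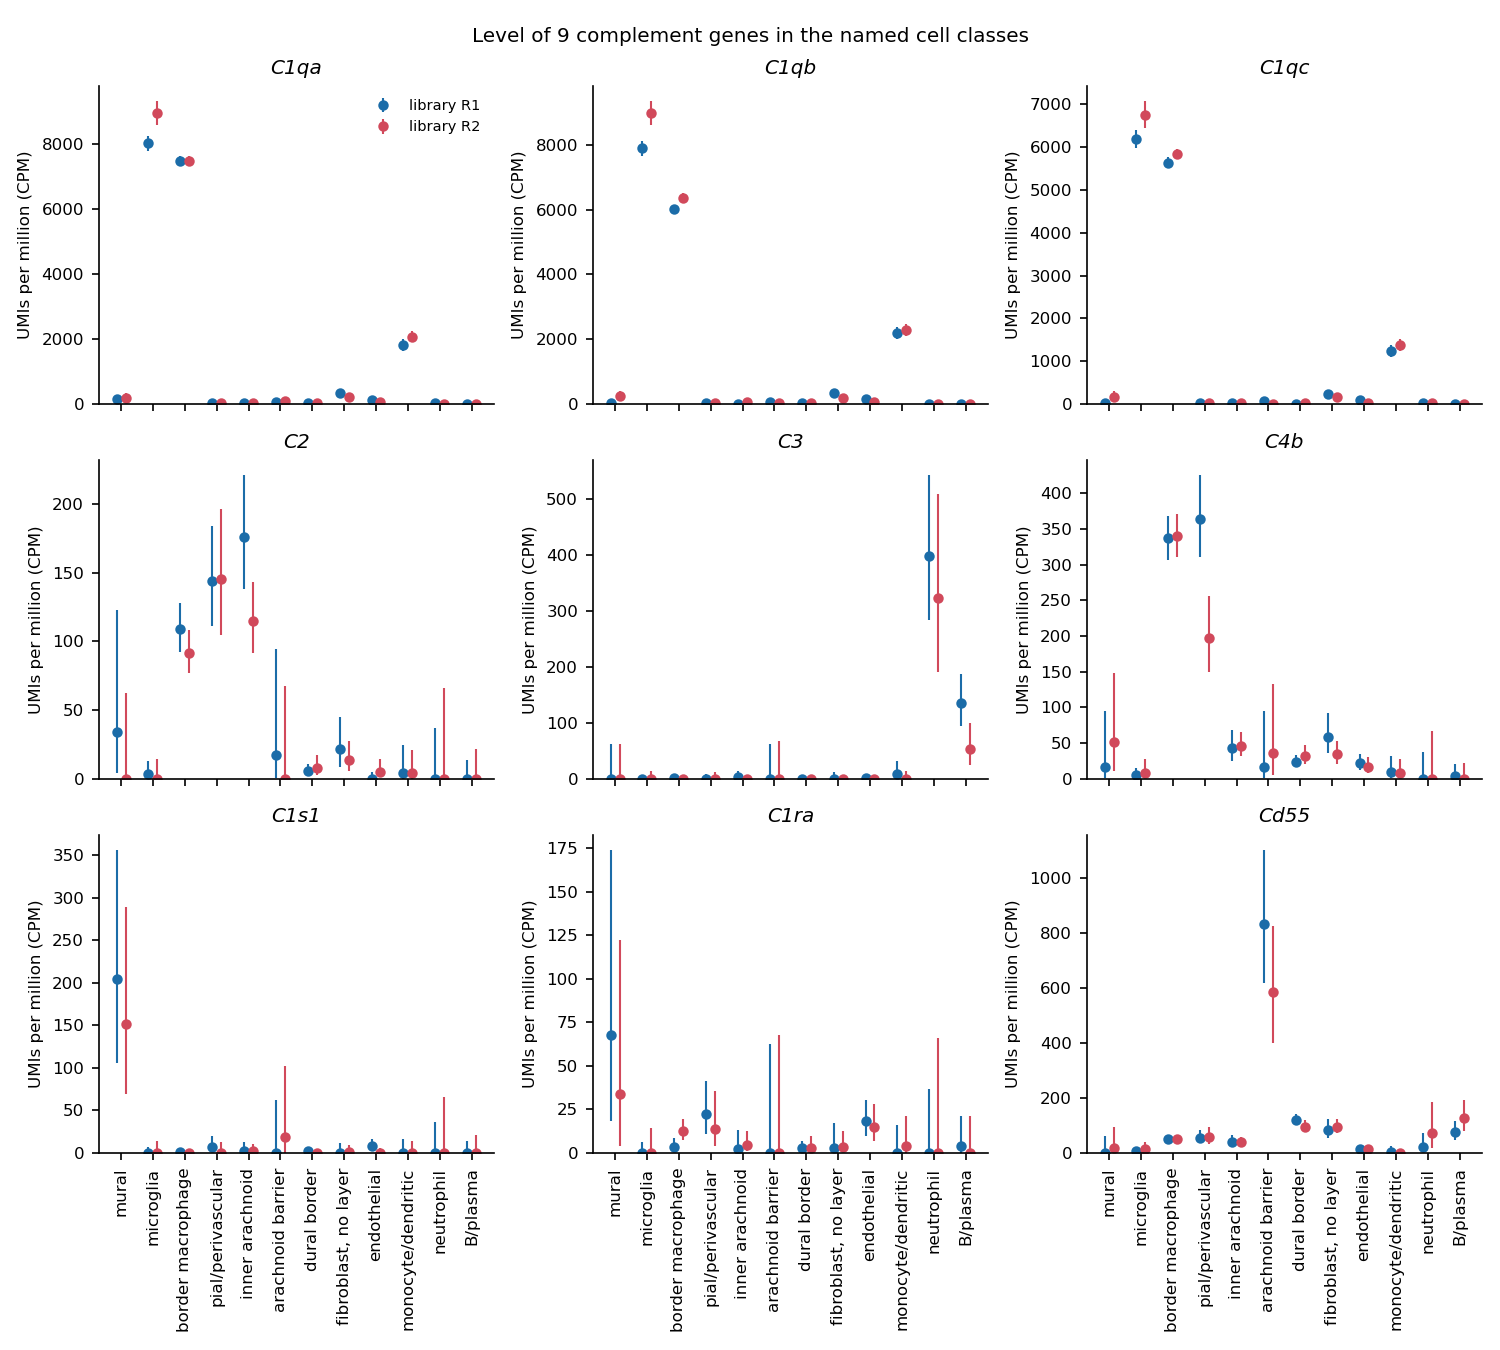
Level of each of the 9 complement genes (vertical axes, CPM, each from 0) in 12 cell classes (horizontal axis), with a point for each library and bars for the exact 95% Poisson interval of its count. C1q genes stand out in microglia-like and border macrophage-like cells, C2 and C4b in macrophages and in pial cells, Cd55 in arachnoid barrier cells (833 and 585 CPM), C1s1 in mural cells (204 and 152 CPM) and C3 in neutrophils.

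The 3 C1q genes were among the most abundant complement transcripts and were high in both resident macrophage classes. C1qa had 8015 and 8934 CPM in microglia-like cells of R1 and R2, against 7473 and 7471 CPM in border macrophage-like cells. C1qb had 7881 and 8964 CPM in microglia-like cells, against 6019.8 and 6369.7 CPM in border macrophage-like cells. C1qc had 6184 and 6738 CPM in microglia-like cells, against 5628 and 5834 CPM in border macrophage-like cells. Microglia-like cells had the higher level in both libraries for all 3 genes, but no difference passed the test. The log2 fold changes were 0.10 ± 0.18 (SE) for C1qa, 0.36 ± 0.19 for C1qb and 0.09 ± 0.19 for C1qc, with adjusted p of 0.77, 0.187 and 0.794.

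Nearly every cell with at least 1000 UMIs contributed in both classes. Thinned values rest on 138 of 181 and 68 of 96 microglia-like cells. For border macrophage-like cells they rest on 378 of 529 and 412 of 668. After thinning to 1000 UMIs, a C1qa UMI was seen in 99.3% (138 cells; exact 95% interval 96.03 to 99.98) and 98.5% (68 cells; 92.1 to 99.96) of microglia-like cells, and in 99.5% (378 cells; 98.1 to 99.9) and 98.8% (412 cells; 97.2 to 99.6) of border macrophage-like cells. UMIs of all 3 chains were seen together in 98.6% and 98.5% of thinned microglia-like cells and in 95.8% and 96.1% of thinned border macrophage-like cells. The median thinned cell had 22 and 24 C1q UMIs per 1000 in microglia-like cells and 18 in border macrophage-like cells of both libraries. No thinned cell had 0. The 10% of thinned cells with the most C1q held 17.1% and 17.6% of the C1q UMIs of microglia-like cells. In border macrophage-like cells they held 18.1% and 18.5%, so the C1q signal was spread over the thinned cells of either class. The mix of chains differed slightly. C1qb took 35.7% (34.9 to 36.5) and 36.4% (35.2 to 37.6) of C1q UMIs in microglia-like cells, against 31.5% (30.9 to 32.04) and 32.4% (31.8 to 32.9) in border macrophage-like cells, and these counting intervals do not overlap.

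Another class with C1q was the monocyte or dendritic-like cluster, led by the antigen presentation genes H2-Eb1, H2-Ab1 and Cd74. It had 1813 and 2074 CPM of C1qa, 2189 and 2279.5 CPM of C1qb, and 1232 and 1374 CPM of C1qc. C1qb was the largest of the 3 chains there, at 41.8% (39.01 to 44.7) and 39.8% (37.3 to 42.3) of C1q UMIs. The cluster held 63 and 75 cells.

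In the 3 larger fibroblast-like layers the C1q genes were near the level at which other macrophage transcripts appeared. C1qa had 29.2 and 48.4 CPM in pial cells, 33.3 and 53.2 CPM in inner arachnoid cells, 68.01 and 91.4 CPM in arachnoid barrier cells and 25.7 and 27.9 CPM in dural border cells. As a percentage of the border macrophage-like level, the 3 C1q genes were at 0.356 to 0.673% in pial cells, 0.395 to 1.04% in inner arachnoid cells and 0.259 to 0.599% in dural border cells over both libraries. The medians of 9 border macrophage markers, such as Mrc1 and Pf4, on the same scale were 0.558% and 0.595% in pial, 0.53% and 0.713% in inner arachnoid and 0.301% and 0.74% in dural border cells. In arachnoid barrier cells the C1q genes were at 0.91 to 1.21% in R1, where the marker median was 0% and the highest marker 3.79%, and at 0 to 1.22% in R2, where the marker median was 1.08% and the highest marker 6.29%, from 0 to 5 UMIs per C1q gene and library. C1qa UMIs were seen in 1.52 to 5.38% of thinned cells of the other 3 layers.

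Endothelial-like cells had 140 and 67.2 CPM of C1qa, 166 and 60.6 CPM of C1qb and 102 and 37.7 CPM of C1qc. R1 was higher than R2 for each gene. In R1 the excess over R2 was greatest in the arterial-scored cluster C12, with 366 and 54.9 CPM of C1qa. The class levels were 1.82 to 2.75% of the border macrophage-like level in R1 and 0.646 to 0.952% in R2, where the medians of the macrophage markers were 0.577% and 0.845%. Fibroblast-like cells that fitted no layer had 335 and 219.9 CPM of C1qa, and most of it came from cluster F06 (23 and 44 cells), which had 2468 and 1719.5 CPM of C1qa and whose leading genes were those of macrophages. The part of free RNA or doublets in these values was not tested.

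**Figure D2:**
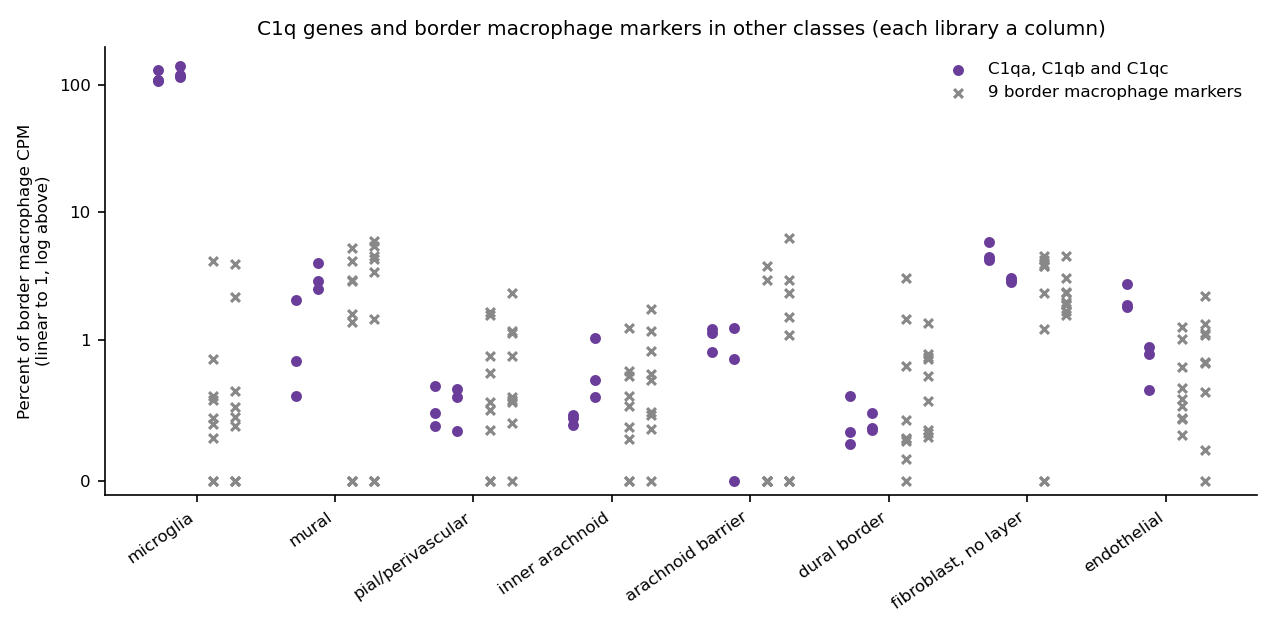
Level of C1qa, C1qb and C1qc (circles) and of 9 border macrophage markers (crosses) in 8 classes as a percentage of the border macrophage-like CPM of the same library (vertical axis, linear to 1 and logarithmic above), with R1 on the left and R2 on the right in each group. C1q genes are above 100% in microglia-like cells, where the markers are mostly below 1%, and lie among the markers in the pial, inner arachnoid and dural border cells.

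The proteases C1r and C1s, which C1q activates, were counted at low levels in most classes. Among the named classes they stood highest in mural-like cells, the pericytes and smooth muscle cells of vessels. C1s1 had 204 and 152 CPM in mural-like cells, from 12 and 9 UMIs. Pial cells had 6.75 and 0 CPM of C1s1 and endothelial-like cells 7.76 and 0 CPM. Microglia-like cells had 0 UMIs in both libraries, which allows up to 5.28 and 11.6 CPM. After thinning, a C1s1 UMI was seen in 16% (4.54 to 36.1) and 26.09% (10.2 to 48.4) of 25 and 23 mural-like cells, and in 0.778% and 0% of endothelial-like cells. C1ra had 67.96 and 33.8 CPM in mural-like cells, from 4 and 2 UMIs only. Pial cells had 22.5 and 13.8 CPM of C1ra, endothelial-like cells 18.1 and 14.7 CPM, and border macrophage-like cells 3.59 and 12.6 CPM. The other layers had at most 4.32 CPM, and no C1ra UMI was seen in microglia-like or arachnoid barrier cells.

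The mural-like class had fewer than 50 cells in each library and was tested only in a fit of classes with at least 30 cells, which was added after the data had been seen. C1s1 passed the filter on low counts only through the mural-like class, where it is high, so its difference is given with no test: 204 and 152 CPM in mural-like cells, against a mean of 2.91 and 3.02 CPM over the other 7 classes. C1ra was higher in mural-like cells than in the mean of the other 7 classes (log2 fold change 3.795 ± 1.11 SE, adjusted p = 0.0118). This is a difference of mean logs in which the 0 UMIs of microglia-like and arachnoid barrier cells weigh heavily. It lies above the log2 fold changes within single libraries, 2.83 in R1 and 1.84 in R2. The mean CPM was 67.96 and 33.8 in mural-like cells, against 7.05 and 6.88 over the other classes. Summed over libraries, C1ra in mural-like cells was 3.06 times that of endothelial-like cells, from 6 and 23 UMIs, with a counting interval of 1.02 to 7.73. Within the endothelial-like cells, C1ra was at 69.8 and 36.6 CPM (8 and 4 UMIs) in cluster C12, which scored highest for arterial markers. That is near the mural-like level of 67.96 and 33.8 CPM, so C1ra was not particular to mural-like cells. In C06, the cluster with the highest capillary score, C1ra was at 8.43 and 9.72 CPM. Fibroblast-like layers had lower C1ra than endothelial-like cells in the class fit (log2 fold change -1.48 ± 0.53, adjusted p = 0.016), a call that DESeq2 did not make (adjusted p = 0.0877).

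C4b, which encodes the C4 protein that C1s cleaves, was shared by border macrophage-like and pial and perivascular cells. It had 337 and 339.9 CPM in border macrophage-like cells and 364 and 197 CPM in pial cells. Inner arachnoid cells had 42.8 and 46.04 CPM, dural border cells 23.6 and 31.9 CPM, arachnoid barrier cells 17.002 and 36.6 CPM, and endothelial-like cells 21.98 and 16.4 CPM. Microglia-like cells had 5.28 and 7.73 CPM, from 3 and 2 UMIs. The order of border macrophage-like and pial cells differed between the libraries, so these 2 classes were not separated, while both stood above every other named class in both libraries. Cluster C07, which took no name and was led by neural genes such as Meg3 and Dclk1, had 149 and 251 CPM.

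Against the other layers C4b was higher in pial cells (log2 fold change 2.92 ± 0.21 SE, adjusted p = 1.28e-17) and lower in dural border cells (-2.45 ± 0.25, adjusted p = 4.37e-12). It was higher in border macrophage-like than in fibroblast-like cells as a whole (2.46 ± 0.14, adjusted p = 3.43e-38). The C4b level of microglia-like cells was 0.0179 times that of border macrophage-like cells, from 5 and 982 UMIs, with a counting interval of 0.00579 to 0.0418. Border macrophage-like cells held C4b at 301% and 436% of its mean level in the 4 named layers, where the medians of 9 fibroblast markers were 7.83% and 11.7%.

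After thinning, a C4b UMI was seen in 21.7% (17.6 to 26.2) and 22.8% (18.9 to 27.2) of border macrophage-like cells and in 24.2% (17.8 to 31.6) and 17.2% (10.2 to 26.4) of pial cells, with 1.95% and 0.442% of endothelial-like cells beside them. Before thinning these shares were 31.4% and 27.1%, 33.9% and 25.6%, and 5.12% and 2.5%. Thinning left out 151 and 256 border macrophage-like, 25 and 32 pial and 75 and 94 endothelial-like cells that had under 1000 UMIs. Border macrophage-like cells came in a Malat1-rich cluster, C02, and a Malat1-poor cluster, C05. C4b was at 398 and 420.2 CPM in C02 and 182 and 161 CPM in C05, so C4b differed between clusters of 1 class that also differ in RNA quality, whose part was not tested.

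C2, the serine protease that joins C4 in the C3-cleaving enzyme, had the largest fold change between the 3 larger fibroblast-like layers among the 6 genes tested there. It had 144 and 145 CPM in pial cells and 176 and 115 CPM in inner arachnoid cells, and 5.55 and 7.97 CPM in dural border cells. Arachnoid barrier cells had 1 UMI in R1 and 0 in R2, where 0 allows up to 54.9 CPM. In border macrophage-like cells C2 was at 109 and 91.4 CPM. It was at 0 and 4.91 CPM in endothelial-like cells, from 0 and 3 UMIs, and at 3.52 and 0 CPM in microglia-like cells, from 2 and 0 UMIs. Pial, inner arachnoid and border macrophage-like cells did not overlap with dural border, endothelial-like or microglia-like cells in any library, and pial and inner arachnoid cells were not separated from each other.

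Relative to the other layers, C2 was higher in pial (log2 fold change 2.14 ± 0.25 SE, adjusted p = 7.6e-10) and in inner arachnoid cells (2.66 ± 0.24, adjusted p = 9.6e-14) and lower in dural border cells (-4.79 ± 0.29, adjusted p = 6.8e-21). Summed over pial and inner arachnoid cells, C2 was 64.8 times its level in endothelial-like cells, from 260 and 3 UMIs, with a counting interval of 21.9 to 316. In microglia-like cells it was 0.0242 times its level in border macrophage-like cells, from 2 and 290 UMIs (0.00292 to 0.0882). The fit gave border macrophage-like cells a higher C2 than the mean of the 3 layers (1.17 ± 0.18, adjusted p = 9.3e-09), but this is a difference of mean logs in which the low dural border value weighs heavily. The mean CPM was 109 and 91.4 in border macrophage-like cells and 108 and 89.4 over the layers, and pial and inner arachnoid cells were above border macrophage-like cells in both libraries.

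Thinned cells with a C2 UMI made up 10.6% (6.27 to 16.4) and 17.2% (10.2 to 26.4) of pial, 13.3% (8.19 to 19.97) and 10.53% (7.11 to 14.9) of inner arachnoid and 8.99% (6.31 to 12.3) and 10.2% (7.45 to 13.5) of border macrophage-like cells. Among dural border cells the share was 0.38% and 0.345%, and among endothelial-like cells 0% and 0.442%. In unthinned cells it was 25.8% and 22.4% in pial, 21.6% and 14.7% in inner arachnoid and 19.09% and 14.5% in border macrophage-like cells. Both inner arachnoid clusters held C2, with 226 and 189 CPM in the Malat1-rich F05 and 107 and 77.9 CPM in the Malat1-poor F02. F02 made up 160 of the 232 and 360 of the 442 inner arachnoid cells. Its first leading genes were Igha and Igkc. It scored 0.85 for inner arachnoid markers and 0.71 for B or plasma markers. In border macrophage-like cells C2 was at 126 and 102 CPM in C02 and 66.5 and 68.5 CPM in C05. C2 overlaps the gene Zbtb12 on the other strand, which had 104 UMIs in all kept cells of both libraries, and whether strand was used in counting is not given in the sources used here.

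**Figure D3:**
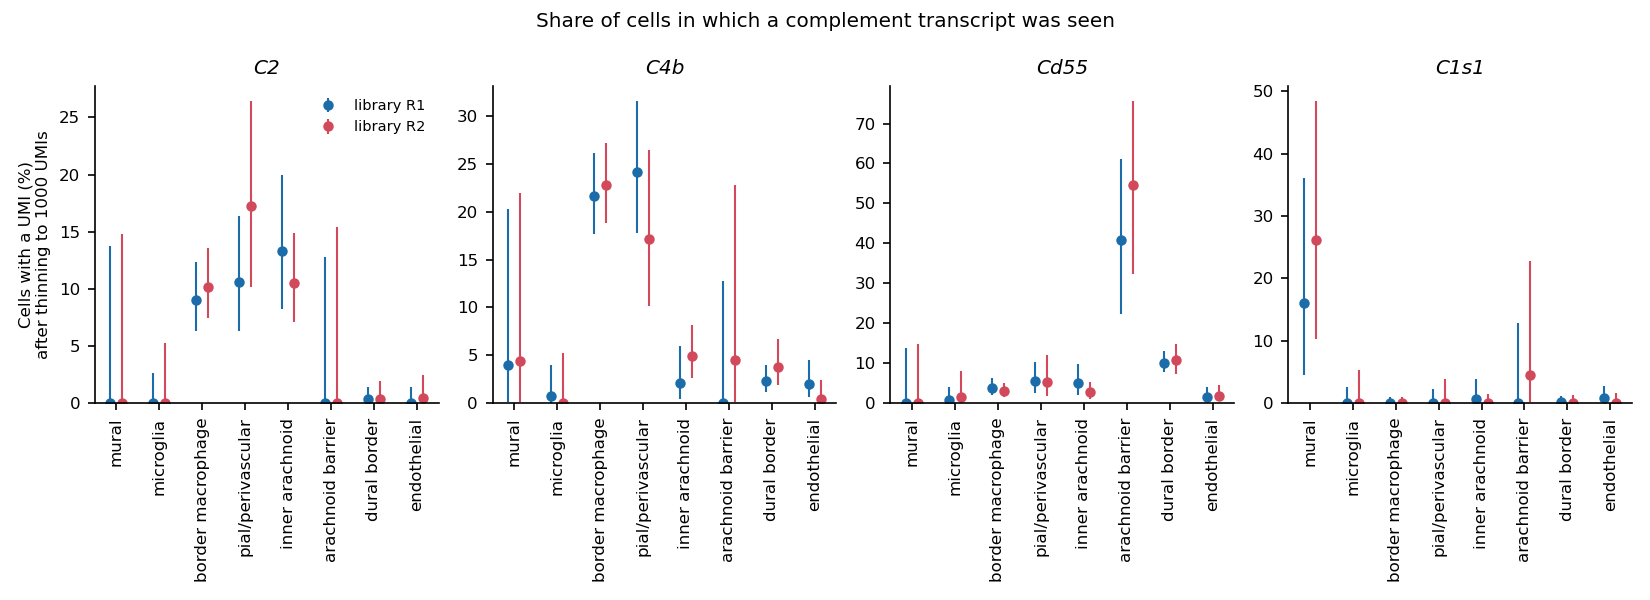
Share of cells with at least 1 UMI of C2, C4b, Cd55 or C1s1 (vertical axes, percent, each from 0) after thinning to 1000 UMIs, in 8 classes. Cells with under 1000 UMIs are left out. Points stand for each library and bars for the exact 95% binomial interval. C2 is seen in border macrophage-like, pial and inner arachnoid cells, C4b in border macrophage-like and pial cells, Cd55 most often in arachnoid barrier cells (40.7% and 54.5%) and C1s1 in mural-like cells.

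C3, the central protein of the cascade, was not detected at this depth in pial, arachnoid barrier, dural border, mural-like or microglia-like cells of either library. A count of 0 allows up to 6.75 and 10.4 CPM in pial cells, 2.08 and 3.98 CPM in dural border cells, 5.28 and 11.6 CPM in microglia-like cells and 51.01 and 54.9 CPM in arachnoid barrier cells. Single UMIs were seen in R1 in inner arachnoid and endothelial-like cells, and 2 in border macrophage-like cells. C3 had 399 and 323 CPM in the 10 and 10 neutrophil-like cells, from 40 and 18 UMIs, and 136 and 52.2 CPM in B or plasma-like cells, from 36 and 9 UMIs. Over all kept cells C3 had 82 and 27 UMIs, most of them in these 2 classes, which were in no fit. In the fitted classes C3 was too low to pass the filter.

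Cd55, the inhibitor among the 9 genes, was highest in arachnoid barrier cells, which form the tight outer sheet of the arachnoid. It had 833 and 585 CPM there, from 49 and 32 UMIs. B or plasma-like cells had 75.4 and 128 CPM. Dural border cells had 121 and 95.6 CPM, fibroblast-like cells of no layer 83.7 and 94.5 CPM, pial cells 56.2 and 58.8 CPM and inner arachnoid cells 40.4 and 40.3 CPM. In border macrophage-like cells Cd55 was at 50.3 and 51.01 CPM. Cells of the endothelial-like class had 14.2 and 14.7 CPM and microglia-like cells 7.04 and 15.5 CPM, from 4 UMIs in each library. Arachnoid barrier cells were above every other class in both libraries, with no overlap.

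Arachnoid barrier cells were too few for the planned minimum of 50 cells and were tested only in the added fit of classes with at least 30 cells, where Cd55 was higher in them than in the other layers (log2 fold change 3.19 ± 0.26 SE, adjusted p = 3.3e-25). Thinned cells with a Cd55 UMI made up 40.7% (22.4 to 61.2) of 27 and 54.5% (32.2 to 75.6) of 22 arachnoid barrier cells, 10.08% (7.64 to 12.97) and 10.7% (7.38 to 14.8) of dural border cells and 1.56% and 1.77% of endothelial-like cells. Before thinning the shares were 55.6% and 56.7%, 21.8% and 15.4%, and 3.31% and 2.81%. No thinned arachnoid barrier cell had more than 2 Cd55 UMIs. Among the 3 larger layers, Cd55 was higher in dural border cells than in pial and inner arachnoid cells (0.85 ± 0.21, adjusted p = 0.000921), a call that was not made at Leiden resolution 1.6 (0.20, adjusted p = 0.633) or by DESeq2 (adjusted p = 0.14). When arachnoid barrier cells joined the other layers, the sign turned (-0.30, adjusted p = 0.36), as they then formed part of the mean on the other side. Microglia-like cells had less Cd55 than border macrophage-like cells (-2.44 ± 0.43, adjusted p = 1.15e-06), a call that was not made after thinning (-1.92, adjusted p = 0.0622).

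Near-identical copies did not take a visible share of these counts. C1rb, C1s2 and Cd55b had 0 UMIs in the microglia-like, border macrophage-like, layer, endothelial-like and mural-like classes. C4a, the copy of C4b, was at most 4.5 CPM in pial, 3.47 CPM in dural border and 0.718 CPM in border macrophage-like cells, and 1 UMI was seen in arachnoid barrier cells. Reads that matched both copies could not be traced in these files.

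**Figure D4:**
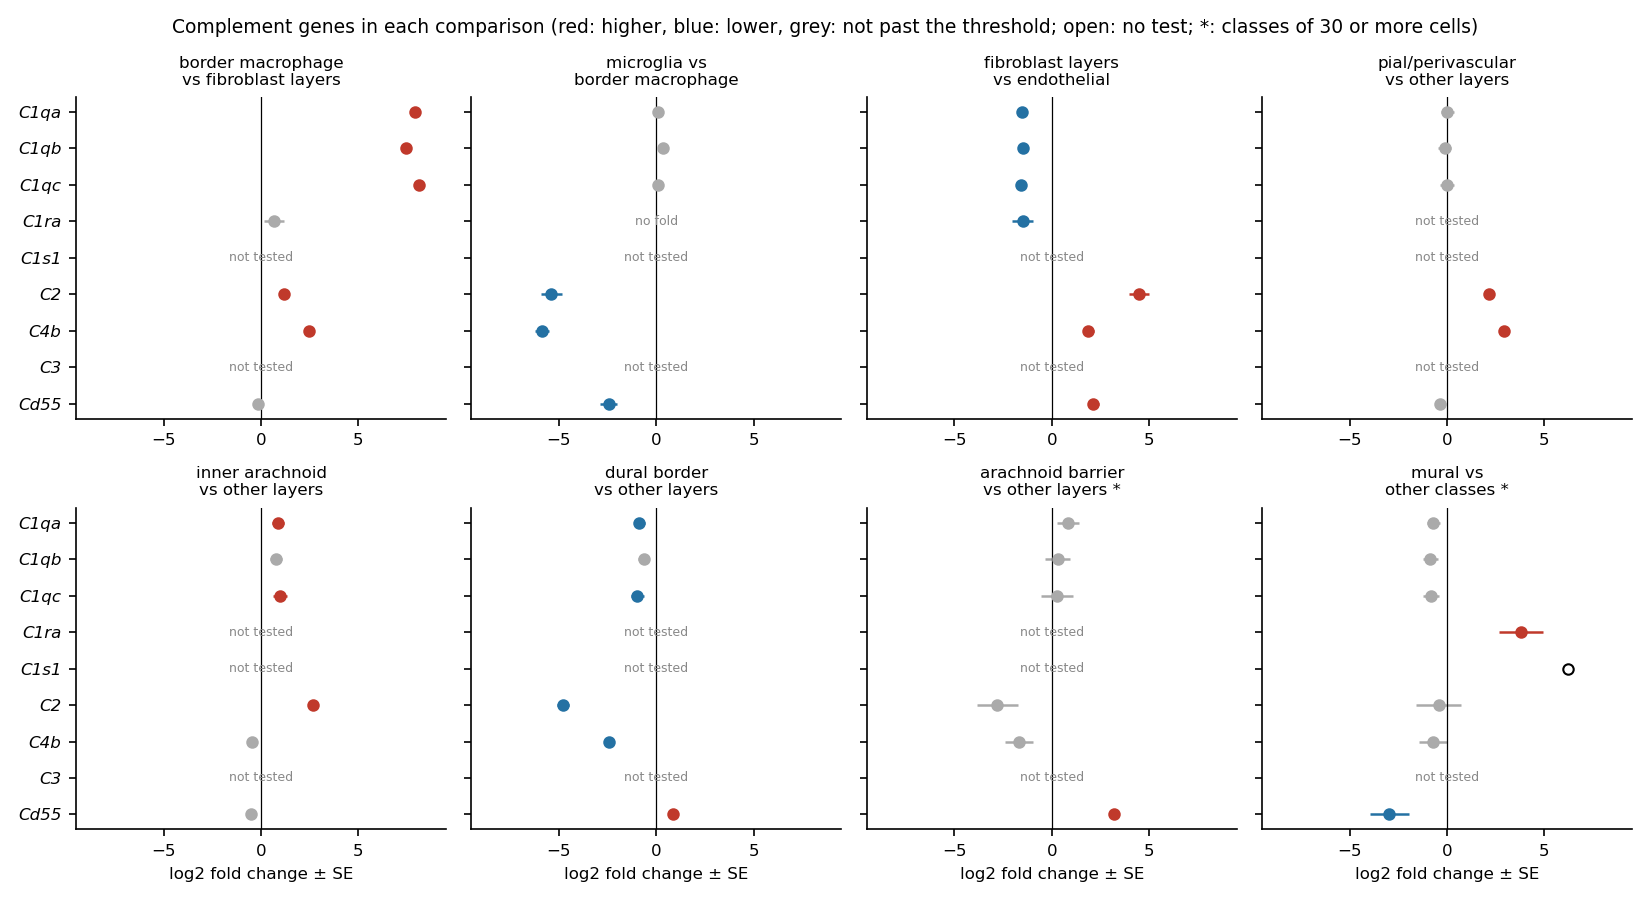
Log2 fold change ± SE (horizontal axes) of each complement gene in 8 comparisons, whose classes stand in the panel titles. Points are red where the gene was higher, blue where lower and grey where the adjusted p missed 0.05; genes removed by the filter on low counts are written as not tested, C1ra in microglia-like cells (0 UMIs) as no fold, the open point is C1s1, given with no test, and an asterisk marks the 2 comparisons of the added fit.

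Counted over comparisons, the 9 genes moved in both directions. Border macrophage-like cells set against the 3 fibroblast-like layers had 5 of the 9 higher (C1qa, C1qb, C1qc, C4b and C2) and 0 lower, 2 did not pass the test (C1ra and Cd55), and C3 and C1s1 were removed by the filter. Their log2 fold changes for the C1q genes were 7.90 ± 0.17, 7.45 ± 0.17 and 8.11 ± 0.18 (SE). In that comparison 30% of all 10792 genes tested were called higher and 33.7% lower, 63.8% in all, so a call there is common. Cd55 was called lower (-0.72, adjusted p = 0.000369) only in the added fit, where arachnoid barrier cells are among the layers, and was near 0 or of either sign under the other settings run. Microglia-like cells set against border macrophage-like cells had 0 higher and 4 lower (C2, C4b, Cd55 and C1ra), in a comparison where 9.81% of genes were higher and 10.5% lower (20.3% in all). The C1ra call rests on 0 UMIs in microglia-like cells, which allow up to 5.28 and 11.6 CPM, against 3.59 and 12.6 CPM in border macrophage-like cells. No fold is given for it, and DESeq2 did not make the call (adjusted p = 0.0904). Fibroblast-like layers set against endothelial-like cells had 3 higher (C2, C4b and Cd55) and 4 lower (C1qa, C1qb, C1qc and C1ra), where 21% of genes were higher and 23.9% lower (44.8% in all). Without the barcodes shared by the libraries, 3 were still higher and 4 lower. Calls over all genes then went from 4840 to 3720. The log2 fold change of C4b was 1.87 ± 0.28 and that of Cd55 2.15 ± 0.31, with adjusted p of 2.54e-09 and 4.6e-10, while those of C1qa, C1qb and C1qc were -1.54, -1.48 and -1.57. Single libraries differed for the C1q genes, with -2.14, -2.23 and -2.07 in R1 and -0.63, -0.46 and -0.53 in R2, and for C2, with 4.47 in R1 and 2.93 in R2.

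Within the layers 6 of the 9 genes were tested, since C3, C1s1 and C1ra were too low. Pial cells had 2 of them higher (C4b and C2) and 0 lower, in a comparison where 10.3% of 8851 genes were higher and 9.71% lower (20% in all). Inner arachnoid cells had 3 higher and 0 lower, with 17.9% of genes higher and 10.6% lower (28.5% in all). Besides C2 these were C1qa (0.86 ± 0.30, adjusted p = 0.0264) and C1qc (0.97 ± 0.37, adjusted p = 0.0381), both near the level of the macrophage markers, which summed to 54.7 and 94.9 CPM in inner arachnoid, 62.98 and 89.9 CPM in pial and 58.9 and 77.02 CPM in dural border cells. Within inner arachnoid cells C1qa was at 62.2 and 71.4 CPM in the Malat1-poor cluster F02, but at 12.3 and 17.2 CPM in the Malat1-rich F05. C1qc was at 33.9 and 41.1 CPM in F02 and 20.5 and 21.5 CPM in F05. The part of macrophage RNA or of RNA quality in the calls of C1qa and C1qc was not tested. Neither call was made in cells with at least 800 genes (adjusted p = 0.851 and 0.526). Dural border cells had 1 higher (Cd55) and 4 lower (C2, C4b, C1qa and C1qc), with 13.7% of genes higher and 14.4% lower (28.1% in all). DESeq2 did not make the calls of C1qa and C1qc (adjusted p = 0.351 and 0.45). Arachnoid barrier cells had 1 higher (Cd55) and 0 lower, with 2.82% of 8430 genes higher and 2.4% lower (5.22% in all), and mural-like cells had C1ra higher and Cd55 lower (from 0 and 1 UMIs), with C1s1 left out for the reason above and 5.28% of 10493 genes higher and 2.33% lower (7.61% in all). The median log2 fold change over the tested members was 2.46 in the border macrophage-like comparison, against -0.11 over all genes, -2.44 in the microglia-like comparison, against -0.06, and -1.48 between fibroblast-like and endothelial-like cells, against 0.02. It was 0.02 in the pial comparison, against -0.01 over all genes, 0.81 in the inner arachnoid, against 0.02, -0.93 in the dural border, against -0.03, and 0.29 in the arachnoid barrier comparison, against -0.16. No such median is given for the mural-like comparison, since C1s1 passed its filter only through the mural-like class.

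Other complement genes, 49 in all, were taken from a list of pathway genes, and 21 of them were tested between classes and 12 between layers. Between border macrophage-like and fibroblast-like cells, 10 of the 21 were higher and 8 lower, where 30% of all genes were higher and 33.7% lower. Several of these genes reached the test only through classes where they are high, so the counts are not read against that share. C3ar1, C5ar1, C5ar2, Itgam, Itgb2 and Fcna were at 2.24 CPM or less over the layers. Cd46 and Susd4 were at 2.65 CPM or less in border macrophage-like cells. By role, 6 of the 8 receptors tested were higher and 1 lower in border macrophage-like cells. Of the 9 inhibitors tested, 1 was higher and 7 lower. Both counts include genes just named, so they are not read as a trend by role. C5ar1, the receptor for the fragment C5a, had 139 and 191 CPM in border macrophage-like cells, against 0.75 and 0.48 CPM over the layers. Fcna, a ficolin that starts the lectin pathway, had 169 and 200.1 CPM in border macrophage-like cells, against 0.75 and 0 CPM over the layers. Itgb2, a subunit of complement receptor 3, had 53.9 and 72.2 CPM in border macrophage-like cells and 0.462 and 0 CPM over the layers.

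Microglia-like cells had 4 of the 21 higher and 8 lower than border macrophage-like cells, where 9.81% of all genes were higher and 10.5% lower. Csmd3 reached the test only through microglia-like cells and Fcna only through border macrophage-like cells. The counts are therefore not read against that share. Csmd3, which carries complement control domains, had 174 and 244 CPM in microglia-like cells, against 0.718 and 0 CPM in border macrophage-like cells. Fcna and Cd93, a receptor first described for C1q, were at 0 in microglia-like cells of both libraries, where border macrophage-like cells had 169 and 200.1 CPM of Fcna and 68.2 and 68.9 CPM of Cd93.

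Fibroblast-like layers had 5 of the 21 higher and 6 lower than endothelial-like cells, where 21% of all genes were higher and 23.9% lower. C3ar1, C5ar1, C5ar2, Csmd3 and Fcna were at 2.24 CPM or less on both sides and reached the test through other classes. These counts, too, are not read against that share. Serping1, the C1 inhibitor that blocks C1r and C1s, had a mean of 367 and 370.5 CPM over the layers and 25.9 and 47.5 CPM in endothelial-like cells (3.24 ± 0.20, adjusted p = 3.8e-34). Cd93 had 3.87 and 5.8 CPM over the layers and 458 and 452 CPM in endothelial-like cells. Cd59a, which blocks assembly of the membrane attack complex, had 12.5 and 19.7 CPM over the layers and 189 and 202 CPM in endothelial-like cells (-3.94 ± 0.23, adjusted p = 1.53e-36).

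Among the layers, pial cells had 6 of the 12 tested genes higher and 3 lower, where 10.3% of all genes were higher and 9.71% lower. Vtn, or vitronectin, a fluid-phase inhibitor of the terminal pathway and an adhesion protein, had 6221 and 4749 CPM in pial cells, against a mean of 1152 and 747 CPM in inner arachnoid and dural border cells (3.51 ± 0.21, adjusted p = 1.8e-21). Colec12, a scavenger receptor collectin, had 760.2 and 713 CPM in pial cells, against 202 and 184 CPM in the other layers (2.89 ± 0.19). Both were lower in dural border cells than in the other layers, with log2 fold changes of -5.09 ± 0.28 for Vtn and -4.76 ± 0.25 for Colec12. Clu, or clusterin, another inhibitor of the terminal pathway, had 4029 and 3018 CPM in arachnoid barrier cells, against 498 and 552 CPM over the other layers, in the added fit (2.55 ± 0.19, adjusted p = 3.6e-28). Vtn was lower in arachnoid barrier cells than in the other layers there (-1.95 ± 0.33). Inner arachnoid cells had 4 of the 12 higher and 3 lower, where 17.9% of all genes were higher and 10.6% lower. Colec12 (1.87 ± 0.20) and Vtn (1.58 ± 0.21) were higher as a difference of mean logs, while their mean CPM were 385 and 338 for Colec12 in inner arachnoid cells, against 389.8 and 371.5 in the other layers, and 2206 and 1361 for Vtn, against 3159 and 2441. Lrp1, a receptor for many ligands, had 404 and 450.3 CPM in inner arachnoid cells and 885 and 842 CPM in the other layers (-0.58 ± 0.19, adjusted p = 0.0159). Dural border cells had 2 of the 12 higher and 4 lower, where 13.7% of all genes were higher and 14.4% lower. Mural-like cells had 3 of 20 tested higher and 2 lower, where 5.28% of all genes were higher and 2.33% lower. In mural-like cells Vtn (2.42 ± 0.16) and Serping1 (1.17 ± 0.29) were higher and Clu (-1.29 ± 0.28) lower. The terminal pathway genes Hc, C7, C8a, C8b and C9 had 0 UMIs in the layers and in border macrophage-like, microglia-like, endothelial-like and mural-like cells.

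**Figure D5:**
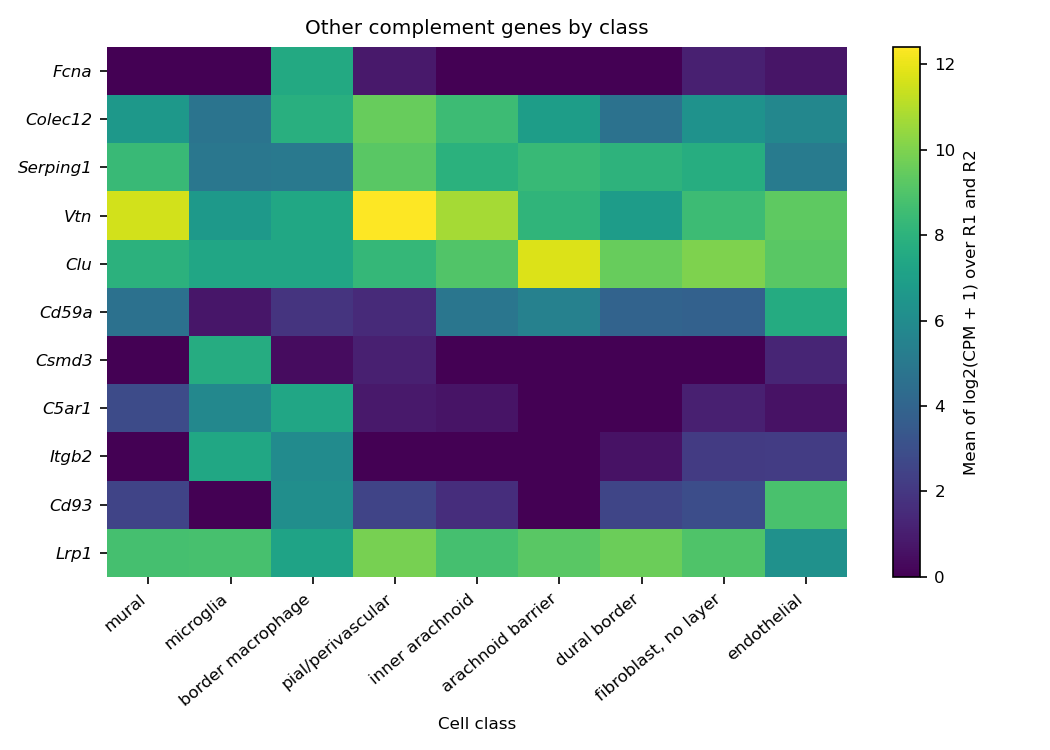
Mean of log2(CPM + 1) over R1 and R2 (colour) of the 11 other complement genes named in the text (rows) in 9 cell classes (columns). Vtn and Colec12 are brightest in pial cells among the fibroblast-like layers, Clu in arachnoid barrier cells, Fcna and C5ar1 in border macrophage-like cells, Csmd3 in microglia-like cells and Cd93 and Cd59a in endothelial-like cells.

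Genes whose levels followed those of the 9 most closely were sought over 12 values, 6 classes in each of 2 libraries, among 7022 genes, by Pearson correlation of log2(CPM + 1). The values share libraries and class totals, so the coefficients are a description. C1qa was closest to Aif1 (r = 0.996), Tyrobp (0.993) and Fcrls (0.990), C1qb to Csf1r (0.996) and C1qc to Csf1r (0.993) and Fcer1g (0.992), all known myeloid genes. C2 was closest to Aldh7a1 (0.918), C4b to Dab2 (0.923), C1ra to Cp (0.952) and Cd55 to Spats2l (0.959) and Egfr (0.954). C3 and C1s1 were removed by the filter and were not placed.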

How the data were processed

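The values deposited by the authors are unnormalized UMI counts for each gene in each barcode. Cell Ranger 4.0.0 made them, per the file headers, and the submitters' processing notes name mm10. The deposited feature lists pair gene identifiers with symbols and the barcode lists name the cells (unit other, per the file headers). The annotation behind the counting is not given in the sources used here.

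Barcodes were kept from 400 genes upwards and up to 10% mitochondrial UMIs, and Scrublet was run at an expected doublet rate of 0.05. Cells were clustered in scanpy 1.11.5 (2000 variable genes without complement genes, 30 principal components, 15 neighbours, Leiden resolution 1.0, then 0.8 among fibroblast-like cells) and named by scores of 25 marker lists. Naming cutoffs were set with the clusters in view. UMIs of a class were added up within a library, where 50 cells or more were present in both, and tested with edgeR 4.0.16 (quasi-likelihood, TMM, filterByExpr, library as block, Benjamini-Hochberg adjustment, threshold 0.05). One fit held 6 classes (5 residual degrees of freedom) and the other 3 layers (2). Fold changes are differences of mean logs, and the SE is the fold change over the square root of F. Shares after thinning to 1000 UMIs are per library, over cells with at least that many. They carry exact 95% intervals, and a count of 0 allows 3 counts. These cover counting error only. On simulated data the class fit recovered 89 to 98% of 4-fold and 41 to 71% of 2-fold changes, and the pial comparison 82% and 43%. The simulation gave all classes the same mean profile and all genes the same spread, with no library effect. It changed 200 genes, none of low expected count, so these rates do not apply to genes with few UMIs here.

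The 9 genes, the lists, the motifs and the tests were chosen with earlier results of these data known. Other complement genes are named, up to 3 per comparison by size of fold change, where they passed, both libraries had 1 direction and the higher side reached 50 CPM; one gene so chosen is not reported here. Other tools were DESeq2 1.42.0, R 4.3.3, python 3.11.15, numpy 2.4.6, scipy 1.17.1, pandas 2.3.3 and igraph 0.11.9. As a check of the block, the deviations of classes from the same library correlated with a median r of 0.137 over 15 pairs in the class fit and 0.158 over 3 pairs of layers.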

Additional observations from a re-analysis of the deposited data

How the results depend on the processing

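Without the replicate block the number of complement genes called stayed at 5, 4, 7, 2, 3 and 5 for border macrophage-like, microglia-like, fibroblast-like, pial, inner arachnoid and dural border cells, each against its comparison group. With 1 library left out no test remains, and the arachnoid barrier comparison could be fitted only with the lower minimum of 30 cells. The microglia-like comparison had too few cells with at least 1% Malat1. Counts that moved by over 1.5 times were those of microglia-like cells (2 after thinning), pial cells (5 with the fibroblast-like cells of no layer as a class), inner arachnoid cells (1 with DESeq2, with at most 5% mitochondrial UMIs, with at least 1% Malat1 and with that extra class) and dural border cells (2 with DESeq2, and 3 with at most 5% mitochondrial UMIs, at least 800 genes, at least 1% Malat1 or, chosen after seeing the data, classes of at least 30 cells). With the extra class the pial fold changes of C1qa and C1qc became -1.01 and -1.07, and those of inner arachnoid cells -0.13 and -0.10. With at least 1% Malat1, inner arachnoid C1qa was -0.16. The cause of these changes was not tested. With at least 30 cells, dural border Cd55 was -0.30, a fit in which arachnoid barrier cells join the other side of the comparison. For 2 C1q genes of inner arachnoid cells DESeq2 gave no adjusted p. Over all genes, counts under the settings ran from 4689 to 7196 (6880 as reported) for border macrophage-like, 1095 to 2366 (2196) for microglia-like, 2851 to 4994 (4840) for fibroblast-like, 711 to 3128 (1773) for pial, 823 to 3412 (2522) for inner arachnoid and 1109 to 3581 (2486) for dural border cells. In the border macrophage-like comparison the median of all genes shifted between -0.16 and 0.16 on the log2 scale. Shares of cells after thinning to 500 UMIs were lower than the thinned shares given in the results. Fewer UMIs are drawn, and the shares are taken over all kept cells of a class. Those in the results leave out the cells with too few UMIs for the deeper draw. The part of depth and of the change of cells in the drop was not tested. C2 then had 6.47% and 3.39% in inner arachnoid, 5.91% and 7.2% in pial and 4.35% and 4.04% in border macrophage-like cells, C4b 15.05% and 7.2% in pial and 10.4% and 9.28% in border macrophage-like cells, and Cd55 19.4% and 36.7% in arachnoid barrier and 6.17% and 3.4% in dural border cells.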
